A study of Homo sapiens with 21 samples.

Results

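The experiment described here compared K562 cells labelled as overexpressing one enhancer RNA, called 34kp, with controls of their own. An enhancer RNA is a noncoding transcript made from an enhancer, a stretch of DNA that raises the transcription of a gene at a distance. The enhancer in question lies 34 kb upstream of MYB and, per the series' design text, encodes a pair of such RNAs, here 34kp and 34kn. Which samples belong to it follows from their labels alone, and they are 6 of the 21 samples of the series: 3 RNA-seq libraries of K562 cells with the genotype label 34kp (overexpression libraries 1 to 3) and 3 with the genotype label 34kpContol (control libraries 1 to 3). All 6 came from the K562 line, established from a patient with chronic myeloid leukaemia and described in the labels as human erythroleukemic cells, grown in RPMI 1640 with 10% fetal bovine serum. No drug, time point, vector, clone number or content of the control was given in the sources used here, and nothing says that the libraries came from separate cultures, so p-values measure only the spread between these libraries, which may be technical. The level of the 34kp RNA itself was not analysed here. The 34kn experiment, 3 overexpression and 3 control libraries with no library in common, served for the test of the difference.

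MYB encodes a transcription factor that keeps blood progenitors dividing and is silenced as they mature. It is highly expressed in K562 cells, which resemble early erythroid cells and make fetal and embryonic globins. Changes in gene output can come from transcript level, counted over whole genes, or from exon usage, in which some exons of a gene are counted more or less often than the rest of that gene because of another start, splice site or end. The series set out to ask whether the enhancer RNAs act on MYB and on exon usage, and the libraries were deposited as counts per exon bin, a bin being a piece of exon that is cut wherever transcripts of a gene differ.

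The 6 libraries held 37941434 to 41243796 counts in exon bins, and per gene they separated by group. The first principal component carried 35.4% of the variance and ran from -28.8 to -20.9 in the controls and from 23.2 to 25.5 in the overexpression libraries, while the second, 24.8%, spread the overexpression libraries from -31.5 to 35.1. Reads set aside for low alignment quality were 7.15% to 8.35% of all counts in the controls and 4.46% to 4.64% in the overexpression libraries. Genes with at least 10 counts numbered 16790 to 16968 in the controls and 16245 to 16494 in the overexpression libraries. The part of these differences in the results below was not tested. Rows for the 10 K562 markers fixed for the check (among them fetal and embryonic globins, GATA1, TAL1, KLF1, LMO2 and TFRC) summed to 8445 to 9021 counts per 1000000 counts in bins (CPM) in the controls and 9002 to 9392 in the overexpression libraries. Defining genes of other blood cells were near 0: ELANE, CTSG and S100A8 of granulocytes and MS4A1 and CD8A of lymphocytes had no count in any library.

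MYB itself did not change by more than the spread between libraries. Its level was 211, 205 and 207 CPM in the controls and 198, 220 and 235 CPM in the overexpression libraries. Overexpression library 1 was below every control and library 3 above every control, so the groups overlapped. The fitted log2 fold change was 0.07, with a 95% interval of -0.10 to 0.24 and an adjusted p of 0.699 in edgeR's quasi-likelihood test, the test behind every gene-level adjusted p below. The neighbours on either side, HBS1L, which rescues stalled ribosomes, and AHI1, a protein of the primary cilium, had log2 fold changes of 0.005 (adjusted p = 0.983) and 0.02 (adjusted p = 0.965). Of the 14 genes tested within 2 Mb of MYB, 0 passed the test, against 2.35% of all genes tested. An unadjusted p under 0.05 was found for 3 of the 14 and for 2982 of all 16662 gene rows tested, a similar share. The 3 were SGK1, a serum-induced kinase, at -0.45, MAP7, a microtubule-binding protein, at -0.34, and MAP3K5, a stress-activated kinase, at 0.31. Of 17 testable genes on the list of reported MYB targets 0 passed, and their median log2 fold change was 0.19 against -0.005 over all genes. Nearest to the threshold were the membrane protein gene MYADM at 0.37 and the growth factor receptor gene KIT at -0.73, with adjusted p of 0.0554 and 0.0775.

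Across the transcriptome, more genes were lower than higher after 34kp overexpression, and the largest rises belonged to antiviral genes. Of 16662 gene rows tested, 392 passed an adjusted p of 0.05 (2.35%): 105 rose (0.63%) and 287 fell (1.72%). In all 392 the control and overexpression libraries did not overlap, as was the case for 23.5% of all rows. The change was at least 2-fold in 17 of the risers and 81 of the fallers, and the median size among the called genes was 0.67 on the log2 scale. Among the 336 called single genes with an entry in GENCODE 29, 278 were protein-coding and 51 were long noncoding RNA genes. The numbers depend on the tool and on single libraries. DESeq2 called 976 genes (404 higher and 572 lower), 380 of the 392 among them. Fits with 1 library left out called 139, 46 and 158 genes without control library 1, 2 or 3, and 614, 58 and 1175 without overexpression library 1, 2 or 3.

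**Figure D1:**
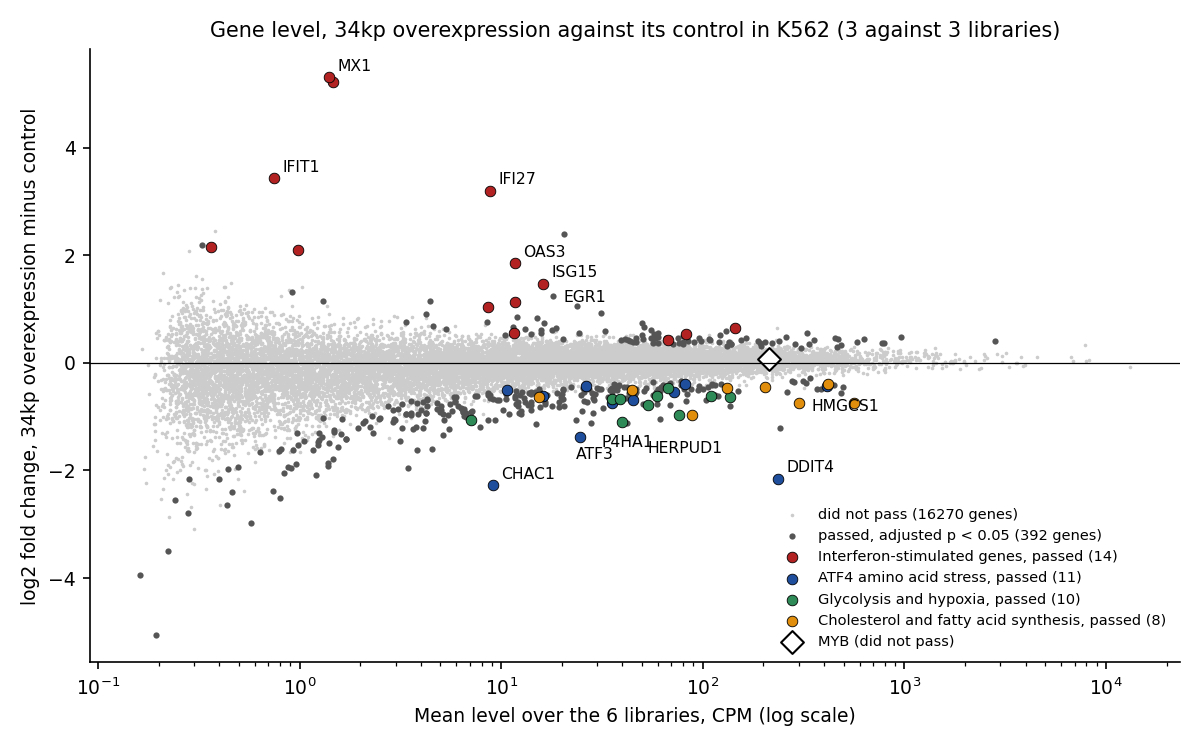
Each point is a gene: the horizontal axis gives its mean level over the 6 libraries in CPM on a log scale and the vertical axis its log2 fold change, 34kp overexpression minus control. Dark points are the 392 genes that passed, coloured points are called members of 4 lists, and the diamond is MYB, at a log2 fold change of 0.07; the interferon-stimulated genes lie above 0 and the members of the other 3 lists below.

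Interferon-stimulated genes formed the upper end of the response. Interferons bind cell-surface receptors that switch on transcription factors, STAT2 and IRF9 among them, which act on a DNA element called the interferon-stimulated response element in front of antiviral genes. Some of these genes also answer directly to double-stranded RNA in the cell through sensors such as IFIH1. Of 24 testable single-gene members, 14 rose and 0 fell, where 0.63% of all genes rose. Both called rows that join an interferon gene to an overlapping neighbour also rose. The median log2 fold change of the list was 0.68, against -0.005 over all genes. Without control library 1 or 2, or without overexpression library 2, 9, 8 and 8 members of the list were called.

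IFI27, a mitochondrial protein induced by type I interferon, stood at 1.53, 2.29 and 1.33 CPM in the controls and at 17.5, 16.5 and 13.5 CPM in the overexpression libraries (log2 fold change 3.20 with an SE of 0.1998, adjusted p = 2.41e-05). The row joining IFI6, a membrane protein of the endoplasmic reticulum that hinders flaviviruses, to LINC02574 went from 6.04, 7.22 and 6.46 CPM to 38.9, 32.6 and 31.9 CPM, a log2 fold change of 2.39 (adjusted p = 1.02e-05). In both, the lowest overexpression library was several times the highest control. Among the OAS enzymes, which sense double-stranded RNA and activate RNase L, OAS3 rose from 6.11, 3.86 and 5.17 to 19.3, 19.1 and 16.5 CPM (log2 fold change 1.86 with an SE of 0.163, adjusted p = 0.000307). ISG15, a ubiquitin-like modifier, rose from 7.598, 9.16 and 9.02 to 29.1, 23.4 and 19.04 CPM (log2 fold change 1.47 with an SE of 0.158, adjusted p = 0.00103). Overexpression library 1 was the highest and library 3 the lowest for both, and all of them lay above the controls.

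A further group was close to silent in the controls. OAS1 had 6, 3 and 0 counts, summed over its bins, in the control libraries and 138, 118 and 84 in the overexpression libraries. As a share of all bin counts this was 37.5 times higher (95% interval 19.5 to 82.8, counting error only). This interval and those below treat the counts as independent. The counting rule is not given, and a read that spans bins may have been counted in each. The intervals would then be too narrow. MX1, a GTPase that blocks viral ribonucleoproteins, had 6, 2 and 0 counts against 83, 138 and 103, a ratio of 40.2 (20.2 to 94.0). IFIT1, which binds viral RNA lacking a proper cap, had 3, 6 and 6 counts against 40, 55 and 66, a ratio of 10.7 (6.27 to 19.5). These genes passed from a few counts in the controls to 40 or more in every overexpression library. IFIT5 and HERC6, a ubiquitin ligase of the interferon response, rose as well, with ratios of 4.35 (2.50 to 8.02) and 4.15 (2.98 to 5.88).

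Signalling genes of the pathway moved less. IRF7, the factor that amplifies interferon production, rose from 5.09, 6.32 and 5.38 to 14.7, 11.04 and 8.89 CPM (log2 fold change 1.05 with an SE of 0.184, adjusted p = 0.01504), a call lost without any 1 control library or without overexpression library 2. PARP9 and its partner DTX3L, an ADP-ribosyltransferase and a ubiquitin ligase that act as a pair, share a start region and both rose: PARP9 by 1.13 and DTX3L by 0.55 (adjusted p = 0.0446). EIF2AK2, the double-stranded RNA-activated kinase PKR, rose by 0.42 (adjusted p = 0.0409). The membrane proteins IFITM3 and IFITM1 with IFITM2, which block virus entry, rose by 0.54 and 0.44; these genes are near-identical in places, so reads could have been shared among them, and the call of IFITM3 was lost without control library 1 or 2 or overexpression library 2. HELZ2, a helicase listed among the named genes for its size of change, rose from 13.3, 17.2 and 15.8 to 36.9, 32.01 and 27.5 CPM (log2 fold change 1.06 with an SE of 0.135, adjusted p = 0.00309).

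The other 10 members did not pass, and the rise was uneven. STAT2 and IRF1 had log2 fold changes of -0.09 and -0.15, and the groups overlapped for both. The RNA sensor gene IFIH1 was at 1.14, 1.54 and 1.28 CPM in the controls and 1.72, 1.74 and 1.96 in the overexpression libraries (adjusted p = 0.337). RSAD2, which makes a chain-terminating nucleotide, had 0.44 (adjusted p = 0.190), and MX2, the relative of MX1, had 0.01 (adjusted p = 0.998). MHC class I genes, which interferon also raises in many cells, gave 0 calls among 10 tested, with a median of -0.16. Of all genes 2.35% passed and 0.63% rose, so 0 calls among 10 does not set this list apart. K562 cells hold little HLA message, and HLA-B was between 0.268 and 1.17 CPM in the 6 libraries.

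**Figure D2:**
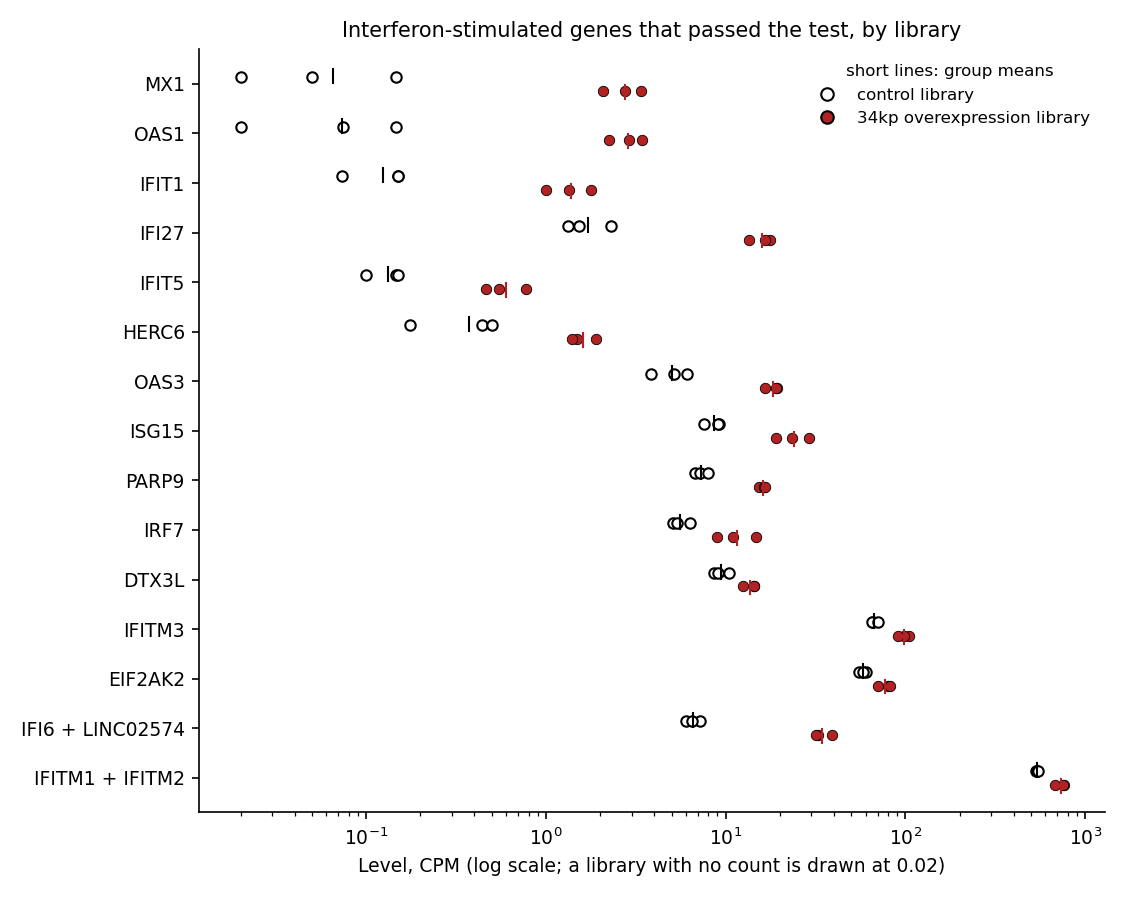
Levels in CPM on a log scale of 13 interferon-stimulated genes that passed and of 2 joined rows; open points are the 3 control libraries, red points the 3 overexpression libraries and short lines the group means, and a library with no read is drawn at 0.02 CPM. In every row the overexpression libraries lie to the right of the controls, most widely for MX1, OAS1, IFIT1 and IFI27.

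The letters in front of the risen interferon genes are shown because they carry the element named above. RefSeq promoter windows (GRCh38.p14, 250 bases before to 50 after each start) were found for 9418 of the symbols tested and searched on both strands for GAAA, any 2 bases and GAAA again, the core of the interferon-stimulated response element. It occurred in 10 of the 12 risen list members with a window and in 5 of the 8 members that did not pass. The share was 3.57% over all 35116 windows, 3.7% among tested genes, 18.3% among the 60 genes that rose and 3.51% among the 171 that fell. Of the 11 risen genes with the motif, 10 were the list members just counted, so the 18.3% does not describe risen genes outside the list. Capitals mark the motif or its reverse complement in 80-base stretches upstream of the start, read along the gene's strand.
IFI27 (chr14:94110605-94110684, plus strand): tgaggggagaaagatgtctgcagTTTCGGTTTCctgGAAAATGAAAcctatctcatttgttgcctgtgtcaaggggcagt
ISG15 (chr1:1013354-1013433, plus strand): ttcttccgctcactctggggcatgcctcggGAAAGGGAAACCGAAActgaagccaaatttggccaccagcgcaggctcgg
OAS3 (chr12:112938394-112938473, plus strand): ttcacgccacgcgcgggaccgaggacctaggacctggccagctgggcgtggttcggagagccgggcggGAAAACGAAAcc
IFIT1 (chr10:89392484-89392563, plus strand): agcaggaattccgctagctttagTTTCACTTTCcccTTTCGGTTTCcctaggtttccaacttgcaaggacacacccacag
PARP9 (chr3:122564301-122564380, minus strand): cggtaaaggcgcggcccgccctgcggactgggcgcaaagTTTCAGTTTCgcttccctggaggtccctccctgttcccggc
IFI27 and IFIT1 hold a pair of motifs 3 bases apart, and in ISG15 the pair overlaps. A match is a description of the letters and no evidence of binding.

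The fallen genes included targets of ATF4, the transcription factor that cells translate when amino acids run short or unfolded protein collects. ATF4 raises amino acid synthesis, transport and tRNA charging and, under lasting stress, pro-death genes. Of 32 testable single-gene members 0 rose and 11 fell, where 1.72% of all genes fell, and 29 of 32 log2 fold changes were below 0, with a median of -0.21. The joined rows of DDIT3 and of ASNS also fell. Without control library 1, 2 or 3, or without overexpression library 2, the calls were 7, 4, 5 and 3.

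CHAC1, which breaks down glutathione, went from 13.4, 15.4 and 16.4 CPM in the controls to 4.33, 1.99 and 3.01 CPM (log2 fold change -2.28 with an SE of 0.225, adjusted p = 0.000591). DDIT4, an inhibitor of the growth kinase complex mTORC1, went from 352, 422 and 385 to 109, 83.1 and 69.1 CPM (log2 fold change -2.15 with an SE of 0.143, adjusted p = 3.60e-05). ATF3, a stress-induced transcription factor, went from 30.05, 38.6 and 38.5 to 14.4, 13.5 and 13.5 CPM (log2 fold change -1.37 with an SE of 0.119, adjusted p = 0.000307). For all of these the highest overexpression library was below every control by a wide margin. Their calls held without any 1 library. The row of DDIT3, the pro-apoptotic factor CHOP, went from 56.4, 62.1 and 54.3 to 28.9, 25.3 and 25.3 CPM (log2 fold change -1.12, adjusted p = 0.000307). SESN2, a leucine sensor that also restrains mTORC1, fell from 53.04, 55.1 and 59.4 to 36.6, 33.3 and 33.8 CPM (log2 fold change -0.69 with an SE of 0.09096, adjusted p = 0.00335), a call lost without overexpression library 2.

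The metabolic arm fell less. The enzymes of serine synthesis moved together, with PHGDH at -0.55, PSAT1 at -0.39 and PSPH at -0.43, each past the test. The cystine transporter gene SLC7A11 fell by 0.74 on the log2 scale (adjusted p = 0.00895), a call lost without control library 2 or overexpression library 2. The mitochondrial folate enzyme gene ALDH1L2 fell by 0.61 and the alanyl-tRNA synthetase gene AARS1 by 0.42. Asparagine synthetase, in the joined ASNS row, had a log2 fold change of -0.48 (adjusted p = 0.0111). ATF4 message itself was at -0.21 (adjusted p = 0.273) with overlapping groups, and TRIB3, another target, at -0.21 (adjusted p = 0.250). GDF15, a stress hormone, was at -0.07 (adjusted p = 0.789).

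Of 22 endoplasmic reticulum chaperone and unfolded-protein-response genes tested, 2 fell and 0 rose, where 1.72% of all genes fell. HERPUD1, which helps clear misfolded proteins from the reticulum, went from 86.4, 82.03 and 79.3 to 42.6, 38.2 and 38.6 CPM (log2 fold change -1.05 with an SE of 0.0877, adjusted p = 0.000274). HSPA5, the main reticulum chaperone BiP, went from 602, 568 and 556 to 354, 389 and 432 CPM (log2 fold change -0.56 with an SE of 0.0806, adjusted p = 0.00647). For HSPA5 every overexpression library lay under every control, and its call was lost without control library 2 or overexpression library 2. The list of heat shock chaperones gave 0 calls among 16, though the joined row of HSPA8, the constitutive Hsc70, rose by 0.41 (adjusted p = 0.00895). In the p53 list 3 of 14 fell, SESN2, TNFRSF10B, a death receptor, at -0.66 and TP53INP1 at -0.88, of which SESN2 is also in the ATF4 list. TNFRSF10B was not called without control library 2, nor TP53INP1 without control library 1 or 2 or overexpression library 2.

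The promoters of some of these genes carry the letters that ATF4 and the reticulum stress factors are known to read. TGATG, any base and AA, the core of the composite ATF4 element, was found on either strand in 3 of 8 fallen list members with a window, ATF3 and CHAC1 among them, in 7 of 18 that did not pass and in 3.62% of all windows. The reticulum stress element, CCAAT, any 9 bases and CCACG, was found in 5 of 21 members of the unfolded protein list and in 0.0769% of all windows, among them HSPA5. Capitals mark these motifs in 80-base stretches upstream of the starts, in the same build.
CHAC1 (chr15:40953226-40953305, plus strand): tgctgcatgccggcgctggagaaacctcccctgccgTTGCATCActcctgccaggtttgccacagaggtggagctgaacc
ATF3 (chr1:212565180-212565259, plus strand): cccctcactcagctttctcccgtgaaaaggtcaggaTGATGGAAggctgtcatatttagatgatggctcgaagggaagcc
HERPUD1 (chr16:56931930-56932009, plus strand): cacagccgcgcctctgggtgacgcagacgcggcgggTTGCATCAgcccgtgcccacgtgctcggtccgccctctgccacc
HSPA5 (chr9:125241366-125241445, minus strand): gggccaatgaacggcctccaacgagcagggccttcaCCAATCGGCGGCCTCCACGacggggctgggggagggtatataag
CHAC1 and HERPUD1 carry the ATF4 letters on the opposite strand, ATF3 on the strand of the gene.

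Some targets of the oxygen-sensing factor HIF fell as well. HIF is destroyed in oxygen by prolyl hydroxylases, among them EGLN3, and when oxygen is short raises glycolysis, blood vessel growth and the removal of mitochondria. Of 26 testable members of the glycolysis and hypoxia list 10 fell and 0 rose, where 1.72% of all genes fell and 0.63% rose. The median was -0.31, against -0.005 over all genes, and the joined rows of PFKFB4 and NDRG1 fell too. Without control library 2 or overexpression library 2 the calls were 4 and 3. P4HA1, a collagen prolyl hydroxylase, went from 53.1, 56.4 and 54.3 to 24.9, 23.7 and 27.5 CPM (log2 fold change -1.11 with an SE of 0.0939, adjusted p = 0.000274). BHLHE40, a repressor tied to hypoxia and the clock, went from 93.6, 109 and 100 to 52.99, 52.7 and 49.9 CPM (log2 fold change -0.96 with an SE of 0.0874, adjusted p = 0.0003195). VEGFA, the vessel growth factor, went from 164, 171 and 167 to 112, 109 and 101 CPM (log2 fold change -0.64 with an SE of 0.07604, adjusted p = 0.00221). The highest overexpression library was well under the lowest control for all 3 genes.

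Most of the other fallen members regulate mitochondria, oxygen sensing or chromatin. BNIP3 and BNIP3L, which mark mitochondria for removal, fell by 0.47 and 0.78 on the log2 scale. PDK1, which keeps pyruvate out of mitochondria, fell by 0.67, EGLN3 by 0.67, the histone demethylase gene KDM3A by 0.62, ANKRD37 by 1.07 and ALDOC, a minor aldolase, by 0.62. Calls were lost without control library 2 or overexpression library 2 for ANKRD37 and EGLN3, without overexpression library 2 for BNIP3L, and without any 1 control library or overexpression library 2 for BNIP3. The main pathway enzymes did not pass: LDHA was at -0.10 (adjusted p = 0.381), GAPDH at 0.02, PKM at -0.09 and ENO1 at 0.13. The glucose transporter gene SLC2A1 was at -0.15 (adjusted p = 0.307). The short HIF core ACGTG was found in 6 of the 8 fallen members with a window and in 8 of the 15 that did not pass. It is common, being in 21.4% of all windows, 31.4% of tested genes' windows and 32.7% of those of all fallen genes. An 80-base upstream stretch of ANKRD37, with the core in capitals on either strand, is shown for its 3 matches, of which 2 overlap on opposite strands, and one of P4HA1 for comparison.
ANKRD37 (chr4:185396662-185396741, plus strand): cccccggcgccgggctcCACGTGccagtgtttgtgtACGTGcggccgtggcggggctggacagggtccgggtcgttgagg
P4HA1 (chr10:73096909-73096988, minus strand): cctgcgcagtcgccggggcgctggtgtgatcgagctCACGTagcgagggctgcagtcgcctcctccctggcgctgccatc

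Part of the cholesterol synthesis genes fell. Their transcription is driven by SREBP factors, which INSIG proteins hold in the reticulum when sterols are plentiful. Of 27 testable members of the cholesterol and fatty acid list 8 fell and 0 rose, where 1.72% of all genes fell and 0.63% rose. The median was -0.16, against -0.005 over all genes, while the joined row of the desaturase gene FADS1 rose by 0.37 (adjusted p = 0.0104). Without control library 1, 2 or 3, or overexpression library 2, the calls were 4, 3, 5 and 3. INSIG1 went from 718, 784 and 614 to 395, 414 and 446 CPM (log2 fold change -0.75 with an SE of 0.0907, adjusted p = 0.00234). HMGCS1, the first committed enzyme on the way to mevalonate, went from 401, 390 and 339 to 206, 222 and 248 CPM (log2 fold change -0.74 with an SE of 0.0902, adjusted p = 0.00242). MSMO1, a late enzyme of the sterol ring, went from 124, 124 and 102 to 51.3, 57.8 and 70.6 CPM (log2 fold change -0.96 with an SE of 0.124, adjusted p = 0.00309). In all 3 overexpression library 3 was the nearest to the controls and still under each of them.

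IDI1, an isomerase of the mevalonate path, fell by 0.47, FDFT1, which makes squalene, by 0.39 and HSD17B7, a later enzyme, by 0.64 on the log2 scale. The call of FDFT1 was lost without control library 2 or 3 or overexpression library 2. The noncoding neighbour INSIG1-DT, transcribed away from INSIG1, went from 6.87, 7.81 and 7.39 to 2.64, 3.14 and 2.8996 CPM (log2 fold change -1.34 with an SE of 0.149, adjusted p = 0.00126). The noncoding RNA OLMALINC fell from 21.5, 20.9 and 18.9 to 10.2, 8.73 and 8.99 CPM (log2 fold change -1.13 with an SE of 0.116, adjusted p = 0.000674). Fatty acid synthesis genes did not pass: FASN was at 0.002 (adjusted p = 0.996), ACLY at -0.01, ACACA at 0.03 and SCD at -0.07. SREBF1 and SREBF2, which encode the SREBPs, were at 0.04 and -0.12 (adjusted p = 0.830 and 0.429). The sterol element letters, ATCAC, any base and CCAC, were in 0 of the 5 fallen members with a window and in 54 of all 35116 windows.

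**Figure D3:**
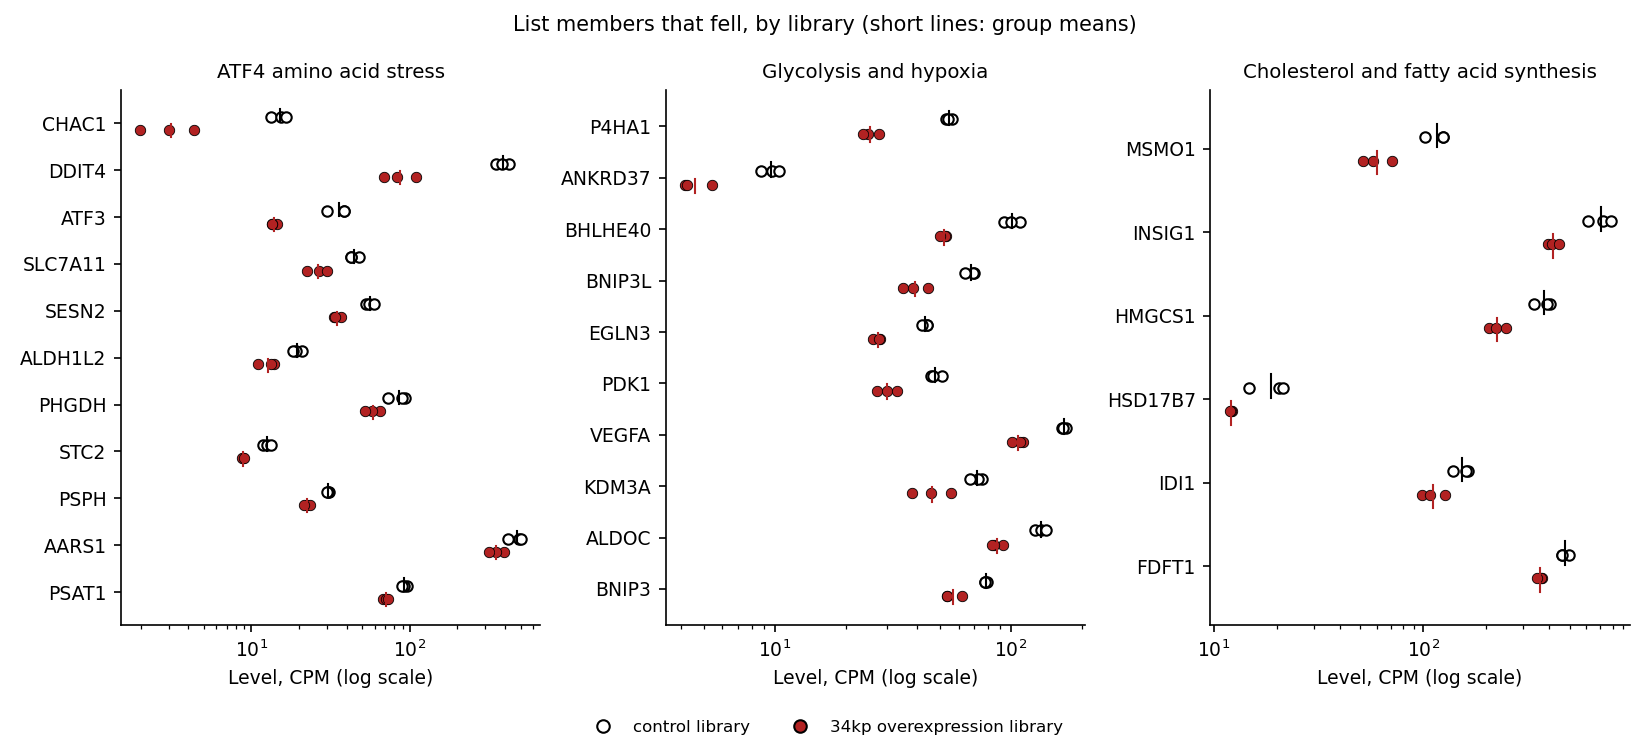
Levels in CPM on a log scale of the fallen members of the ATF4 list (11 genes), the glycolysis and hypoxia list (10 genes) and the cholesterol and fatty acid list (6 genes); open points are the 3 control libraries, red points the 3 overexpression libraries and short lines the group means. In every row the red points lie to the left of the open ones, most widely for CHAC1 and DDIT4.

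Some late erythroid genes fell. Red cell membrane and blood group genes had 5 of 22 members fall and 0 rise (median -0.20), where 1.72% of all genes fell. The Rhesus genes RHCE and RHD were at -0.49 and -0.49, the glycophorin genes GYPE and GYPB at -0.48 and -0.48, and carbonic anhydrase CA1 at -0.48. RHCE and RHD, and GYPE and GYPB, are near-identical pairs, so the counting could have split reads between them. The count fell to 0 without any one control library or without overexpression library 2. In haem synthesis 2 of 14 fell. ALAS2, the erythroid rate-limiting enzyme, went from 139, 146 and 145 to 94.9, 99.02 and 87.04 CPM (log2 fold change -0.61 with an SE of 0.0795, adjusted p = 0.00309), and the mitochondrial iron importer SLC25A37 from 495, 531 and 507 to 390, 388 and 367 CPM (log2 fold change -0.42 with an SE of 0.06504, adjusted p = 0.00825). The first was lost without control library 2 and the second without control library 2 or overexpression library 2. FOXO3, a factor of erythroid maturation, fell from 27.2, 25.5 and 24.995 to 14.8, 15.7 and 14.4 CPM (log2 fold change -0.79 with an SE of 0.1001, adjusted p = 0.00271).

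The globins and the erythroid master factors did not pass. The row joining HBE1, HBG1 and HBG2 was at 6665, 6157 and 6512 CPM in the controls and 7181, 6785 and 6786 CPM in the overexpression libraries (adjusted p = 0.378), and the row of HBZ had a log2 fold change of -0.18 (adjusted p = 0.198). GATA1, TAL1 and KLF1 had log2 fold changes of -0.06, -0.03 and 0.15, with adjusted p of 0.819, 0.879 and 0.697. The replication-dependent histone genes leaned down, with 21 of 24 below 0 and a median of -0.32, but only H2AC11 (-0.67) and H2AC13 (-0.50) passed. DNA replication genes gave 0 calls among 37 and mitosis genes 1 among 36, where 2.35% of all genes passed. The mitosis call was the checkpoint kinase gene BUB1 at -0.34. BUB1 and H2AC13 were not called without any 1 control library or overexpression library 2, nor H2AC11 without control library 1 or 2 or overexpression library 2.

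Of 22 testable immediate early genes 2 rose, EGR1 and IER2, where 0.63% of all genes rose. In that list 1 fell, the ATF3 described above, where 1.72% of all genes fell. EGR1, an immediate early transcription factor, went from 9.91, 9.53 and 12.8 to 29.7, 24.9 and 21.7 CPM (log2 fold change 1.25 with an SE of 0.1499, adjusted p = 0.00234). CCND1, the G1 cyclin D1, went from 12.3, 10.5 and 13.8 to 20.1, 20.5 and 20.2 CPM (log2 fold change 0.73 with an SE of 0.1201, adjusted p = 0.0104). SPRY4, a feedback inhibitor of the MAP kinase path, was at 0.63 and the immediate early gene IER2 at 0.50, the first the 1 call among 14 MAPK feedback genes. STAT5A, a target of the BCR-ABL1 kinase that drives K562 cells, went from 253, 263 and 284 to 406, 406 and 366 CPM (log2 fold change 0.56 with an SE of 0.0749, adjusted p = 0.00394). ID1, a BMP-induced inhibitor of differentiation factors, went from 49.7, 46.7 and 48.4 to 75.5, 67.5 and 70.3 CPM (log2 fold change 0.56 with an SE of 0.0853, adjusted p = 0.00796). The call of STAT5A and of ID1 was lost without control library 2, that of CCND1 without control library 2 or overexpression library 2, that of SPRY4 without control library 1 or 2 or overexpression library 2, and that of IER2 without any 1 control library or overexpression library 2. BCR itself was at -0.04 (adjusted p = 0.843).

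Further large risers above 5 CPM were TMEM158, a Ras-induced membrane protein gene, at 0.93, F2RL3, a thrombin receptor gene, at 0.85, CD69, an activation marker, at 0.75, PTPN7, a phosphatase of blood cells, at 0.73, SLIT2, a guidance ligand, at 0.67 and NEFH, a neurofilament subunit, at 0.65. Among abundant genes, KRT10, a keratin, was at 0.62 and PLXNA1, a semaphorin receptor, at 0.51. The calls of F2RL3, PTPN7, NEFH and PLXNA1 were lost without control library 1 or 2 or overexpression library 2, those of CD69 and SLIT2 without any 1 control library or overexpression library 2, and that of KRT10 without control library 2. The row of H19, an imprinted noncoding RNA, went from 10.3, 10.9 and 11.3 to 24.9, 17.2 and 16.1 CPM (adjusted p = 0.0216). The other imprinted gene called, CDKN1C, an inhibitor of cyclin-dependent kinases, fell from 66.6, 65.4 and 58.7 to 38.5, 37.8 and 35.4 CPM (log2 fold change -0.77 with an SE of 0.0906, adjusted p = 0.00211). The mitochondrial messages MT-ND1 and MT-ND3 rose by 0.47 and 0.47, where 0.63% of all genes rose, while the other 8 mitochondrial genes tested did not pass. Both calls were lost without control library 1 or 2 or overexpression library 2, that of MT-ND3 also without control library 3. The difference from the 34kn effect did not pass for MT-ND1 (adjusted p = 0.147) and passed for MT-ND3 (adjusted p = 0.0266). The median of the mitochondrial list was 0.16 for 34kp and 0.21 for 34kn.

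Further large fallers were ARRDC3, an arrestin-like protein, from 38.1, 38.2 and 38.2 to 15.2, 18.1 and 19.6 CPM (log2 fold change -1.12 with an SE of 0.1097, adjusted p = 0.000578), and LRP1, a large scavenger receptor, from 6.48, 9.26 and 7.49 to 2.79, 3.95 and 3.09 CPM (log2 fold change -1.24 with an SE of 0.186, adjusted p = 0.00774). CYP3A5, a drug-metabolising enzyme, was at -1.19, the surface glycoprotein gene CD24 at -1.07, the protease gene PRSS8 at -1.06, RDM1 at -1.06 and TUBB2B, a beta-tubulin, at -1.06. FAXDC2 went from 128, 128 and 127 to 81.5, 78.1 and 77.7 CPM (log2 fold change -0.69 with an SE of 0.0741, adjusted p = 0.00101). VIM, the intermediate filament vimentin, was at -0.49 and TUBA1A, an alpha-tubulin, at -0.64. Calls were lost without control library 1 for TUBA1A, without control library 2 for LRP1, PRSS8, TUBB2B, VIM and TUBA1A, without control library 3 for TUBB2B, and without overexpression library 2 for PRSS8, RDM1, VIM and TUBA1A. In the fibroblast marker list FN1, a matrix protein, fell from 42.2, 44.1 and 37.1 to 19.9, 25.1 and 23.9 CPM and COL1A1 from 24.4, 25.2 and 22.4 to 17.8, 16.9 and 13.3 CPM, with the list's sum at 78.2 to 85.4 CPM in the controls and 59.1 to 62.4 CPM in the overexpression libraries. FN1 was not called without control library 2, and COL1A1 not without any 1 control library or overexpression library 2. COL1A2 of the same list went the other way without passing, from 16.7, 15.8 and 18.1 to 24.5, 17.5 and 21.7 CPM (log2 fold change 0.33 with an SE of 0.132, adjusted p = 0.216). The fibroblast genes LUM, DCN and THY1 had at most 0.270 CPM in any library.

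Of 60 testable splicing factors 4 rose and 1 fell, where 0.63% of all genes rose and 1.72% fell, and 48 were above 0 (median 0.13). SRSF3, a splicing regulator that also controls other SR proteins, went from 392, 363 and 389 to 498, 508 and 564 CPM (log2 fold change 0.46 with an SE of 0.07202, adjusted p = 0.00895). SRSF7, its close relative, went from 221, 199 and 226 to 296, 288 and 316 CPM (log2 fold change 0.48 with an SE of 0.0764, adjusted p = 0.00938). Both calls, and that of CELF2, were lost without control library 2 or overexpression library 2. HNRNPA0 and HNRNPH1 rose by 0.46 and 0.36, the joined row of SRSF2 rose by 0.45, and CELF2, a splicing regulator of blood cells, fell by 0.60 on the log2 scale. Ribosome biogenesis genes were above 0 in 27 of 27, with a median of 0.25, but only NIP7 (0.48) and RRP12 (0.39) passed. These calls and that of HNRNPA0 were lost without any 1 control library or overexpression library 2. Cytosolic ribosomal proteins gave 0 calls among 42, the list of mediator, cohesin and enhancer cofactor genes 0 among 31 and nonsense-mediated decay factors 0 among 11.

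Exon usage changed in few genes. Usage was tested as the change of a bin relative to the rest of its gene, with edgeR's diffSpliceDGE. Of 11721 gene rows with at least 2 testable bins, 10 passed (0.0853%), and of 220442 bins 19 passed (0.00862%), 17 lower and 2 higher. Bins with an unadjusted p under 0.05 numbered 4822. A DEXSeq-type model called 6 genes. Fits without overexpression library 3 called 34 genes, and those without control library 2 or 3 or overexpression library 2 called 3, 6 and 4. Among 58 splicing factors with testable bins, 0 passed, and 1 had a Simes p under 0.05.

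MYB gave no call in any of its bins. It had 46 bins, 34 of them testable, with usage changes between -0.44 and 0.80 on the log2 scale, 0 unadjusted p under 0.05 and every adjusted p at 1. The extreme was bin 31, a bin of few reads, with 9, 11 and 4 in the controls and 19, 13 and 11 in the overexpression libraries (unadjusted p = 0.108). In bin 4 the controls had 129, 136 and 144 reads and the overexpression libraries 177, 139 and 95 (usage change -0.03). In bin 5 they had 212, 214 and 207 against 265, 206 and 160 (usage change -0.04). Both bins were higher in overexpression library 1 and lower in library 3 than in any control. GENCODE 29 cuts MYB into 47 parts, not 46, so these bins could not be placed on the genome or tied to a promoter.

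ACSM3, which encodes a mitochondrial acyl-CoA synthetase, had the firmest change. Its bin 6 held 366, 371 and 311 reads in the controls and 107, 114 and 115 in the overexpression libraries. This was 3.66%, 3.81% and 3.31% of the gene's summed bin counts against 1.39%, 1.40% and 1.44%. The usage change was -1.35 (adjusted p = 2.70e-07 over all bins, and 5.17e-09 in the DEXSeq-type model). Bin 5, next to it, changed by -1.72 (adjusted p = 0.0102), and the gene as a whole did not pass (log2 fold change -0.26, adjusted p = 0.0900). Bins of genes that GENCODE 29 cuts into as many parts were placed in order of genomic position. In that order reads followed part length better than in reverse for 482 of 583 plus strand and 462 of 546 minus strand genes compared. The release behind the bins is not given, and equal numbers of parts do not show that the parts are the same. By this placing, bin 6 would lie at chr16:20679450-20682176 (GRCh38, plus strand), in a noncoding exon of ACSM3-215, a transcript annotated as processed. In the 34kn experiment the same bin took 9.35% to 10.6% of the gene's counts in the controls and 9.51% to 12.96% in the overexpression libraries. Its share thus also differed between the controls of the experiments. The first 100 bases of the place given to bin 6, at chr16:20679450-20679549, are shown.
ACSM3 bin 6, start: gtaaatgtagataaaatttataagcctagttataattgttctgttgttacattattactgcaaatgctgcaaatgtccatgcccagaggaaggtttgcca

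RHOBTB3, which encodes an ATPase of the Golgi, changed at its first bins in the same direction. Bin 1 had 20, 19 and 10 reads in the controls and 0, 3 and 3 in the overexpression libraries, bin 3 had 15, 22 and 23 against 4, 2 and 3, and bin 4 had 24, 32 and 17 against 8, 5 and 1. Their usage changes were -2.997, -2.73 and -2.41 (adjusted p = 0.0169, 0.0149 and 0.0215). No bin after these passed, and the gene as a whole was at 0.08 (adjusted p = 0.725). The DEXSeq-type model did not call the gene, and bin 3 was not called without control library 2 or 3 or overexpression library 2 or 3. In the 34kn experiment bin 3 had 9, 6 and 3 reads in the controls and 2, 1 and 5 in the overexpression libraries. Its share of the gene's counts was 0.0172% to 0.0416% in the 34kp and 0.0107% to 0.0542% in the 34kn overexpression libraries. A low share was thus not particular to 34kp. Placed in the same way, with the same limit, bin 3 would be a noncoding exon piece of RHOBTB3-216 at chr5:95717535-95717632 (GRCh38, plus strand), printed whole.
RHOBTB3 bin 3: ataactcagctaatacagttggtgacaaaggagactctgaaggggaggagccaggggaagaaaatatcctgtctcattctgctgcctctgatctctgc

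The remaining called rows need more care. RPS18 and RPL7, ribosomal protein genes with many near-identical pseudogene copies, were called in 2 bins each. RPS18 bin 2 held 569, 633 and 827 reads against 283, 229 and 350 here and from 272 to 1179 in the 34kn libraries, and neither gene was called in the DEXSeq-type model. Another 6 called rows join overlapping genes, so that a change may be in the level of a neighbour. One of these joins HSP90B1, the reticulum chaperone GRP94, with a microRNA gene, and its bin 32 fell from 137, 144 and 102 to 23, 42 and 32 reads (usage change -1.78). All 6 34kn libraries had 34 to 45 reads there, so the 34kp controls stood apart from the other libraries. In the DDIT3 row the bins with higher usage kept their reads, 89, 88 and 86 against 87, 75 and 87 in bin 1, while the row as a whole fell.

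**Figure D4:**
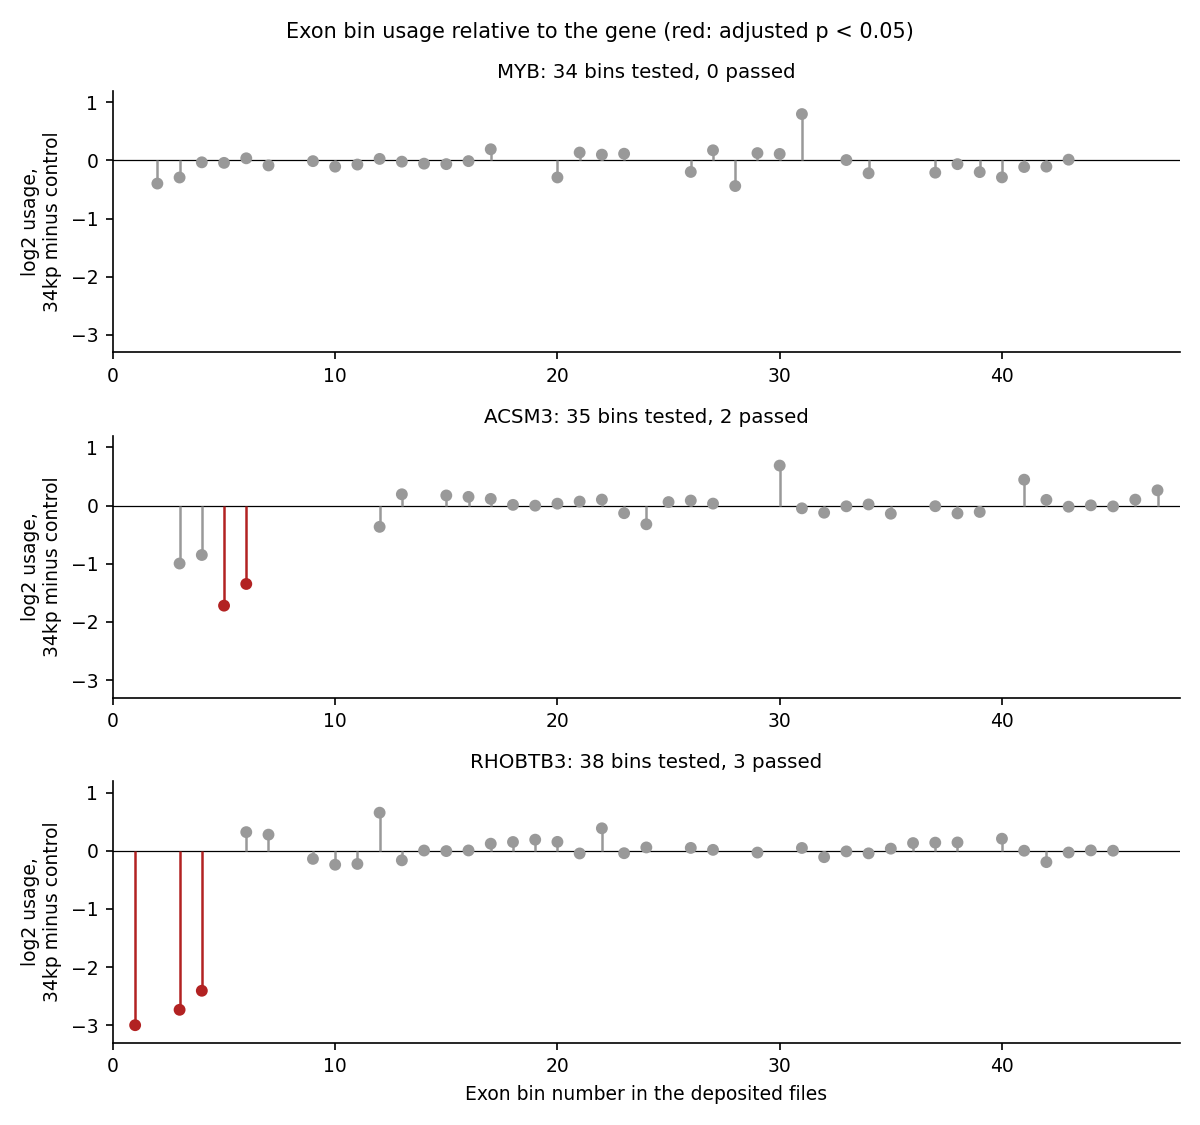
Change in usage of each testable exon bin relative to its gene (log2, 34kp overexpression minus control) against the bin number in the deposited files, for MYB, ACSM3 and RHOBTB3; red bins passed at an adjusted p of 0.05. MYB stays between -0.44 and 0.80 with no red bin, while ACSM3 and RHOBTB3 have theirs, down to -1.72 and -2.997, at low bin numbers.

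The effect of 34kn was measured in its own experiment. In the 34kn comparison edgeR called 0 of 16116 genes, with 3759 at an unadjusted p under 0.05 and 1264 called by DESeq2. The difference between the 34kp and the 34kn effect, tested over all 12 libraries, passed for 1102 of 17323 genes (6.36%). Of the 392 genes called for 34kp, 288 passed this test. They had been selected for their 34kp effect, which is a term of the difference, so its sign is nearly fixed by that choice. Fits leaving out 1 of the 12 libraries called between 380 genes (without 34kp control library 2) and 2747 (without 34kp overexpression library 3) in the test of the difference. Of the 372 called genes also tested for 34kn, 117 had the same sign there. The experiments were separate, so anything else that differed between them cannot be told apart from the RNA overexpressed.

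By list, 10 of the 11 fallen ATF4 genes passed the test of the difference, as did 9 of the 10 fallen hypoxia genes. So did 7 of the 8 fallen cholesterol genes, all 5 fallen red cell membrane genes and 8 of the 14 risen interferon genes. Over all genes called for 34kp it was 288 of 392, and the list members too had been selected for their 34kp effect. The medians of these lists in the 34kn comparison were 0.13, -0.02, 0.02, 0.01 and -0.14. IFI27 changed by 0.14 in the 34kn comparison, a difference of 3.07 (adjusted p = 0.000233). DDIT4 changed by -0.34 there, a difference of -1.82 (adjusted p = 0.000191), and HMGCS1 by 0.18, a difference of -0.92 (adjusted p = 0.00031). OAS1, MX1 and IFIT1 had between 0 and 7 counts in each 34kn library, control or overexpression, and no 34kn fold is given for them. Their tests of the difference rest on these few counts: OAS1 did not pass (adjusted p = 0.848) and MX1 did (adjusted p = 0.0343). CDKN1C and SLIT2 moved the same way in both, by -0.34 and 0.35 for 34kn, and their differences did not pass (adjusted p = 0.0572 and 0.376). MYB was at 0.17 in the 34kn comparison, a difference of -0.10 (adjusted p = 0.619).

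**Figure D5:**
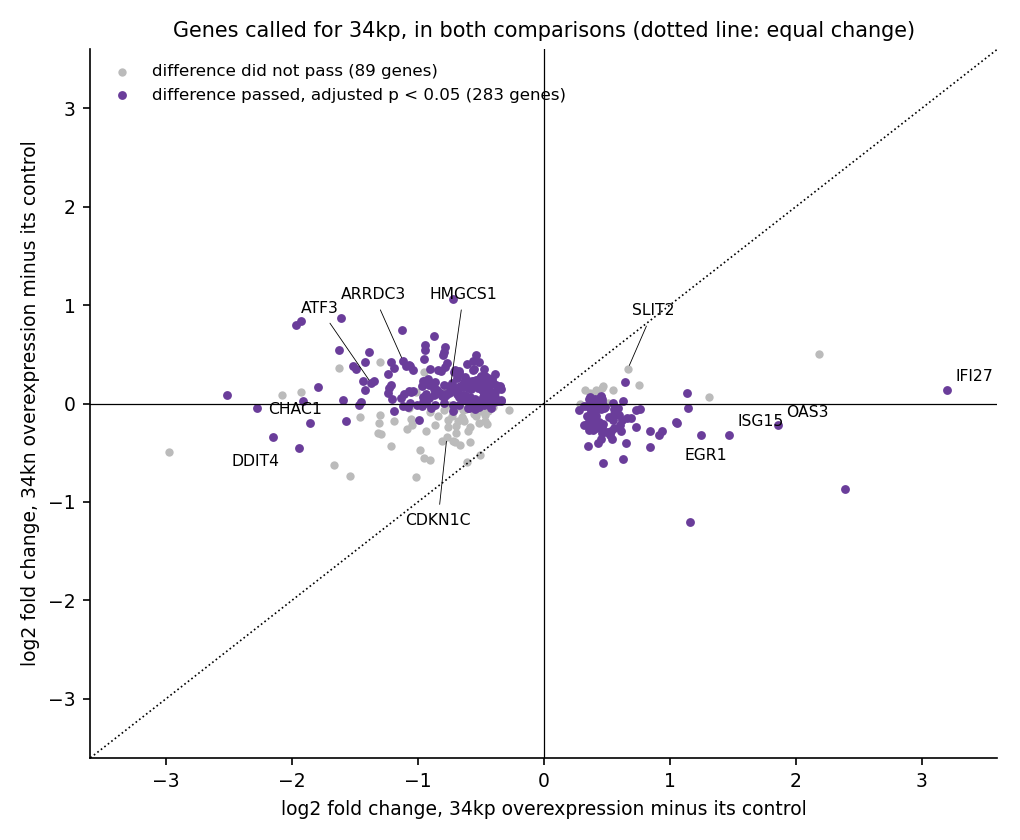
Log2 fold change in the 34kp comparison (horizontal) against that in the 34kn comparison (vertical) for the 372 genes called for 34kp and tested in both; purple points are the 283 genes whose difference passed at an adjusted p of 0.05 and grey points the other 89. The genes were chosen for their 34kp change, so their spread along the horizontal axis is given, while most lie near 0 on the vertical axis.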

How the data were processed

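Per the labels' protocols, TRIzol extracts of K562 cells went into a TruSeq RNA kit at 1 µg of total RNA a library. Trimmomatic 0.93, STAR 2.7.10a and the build GRCh38 are named in the submitters' processing notes. The counting tool, its strand setting and the annotation release are not given in the sources used here. Each file, as deposited, holds raw read counts per exon bin, which the authors did not normalise. A bin of overlapping genes carries their joined names, and such rows (2582 of 57300 names) are reported apart from single genes. The closing summary rows of each file, which name no gene (such as reads outside bins, 31.1% to 32.8% of all counts), entered neither library sizes nor tests.

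Bins were summed per gene name, so a read that spans bins may enter a gene's count more than once. Genes were tested with edgeR 4.0.16 (TMM, a minimum count of 10, robust quasi-likelihood fit, two-sided, Benjamini-Hochberg adjusted p under 0.05 over all genes tested) in R 4.3.3, 3 libraries against 3. Exon usage was tested with edgeR's diffSpliceDGE over bins, with Simes p per gene. DESeq2 1.42.0 gave the alternative gene test and a model of the DEXSeq type, since DEXSeq itself was not run. The difference from 34kn was a contrast over 12 libraries. CPM are counts per 1000000 counts in bins. The fit was tested on simulated data. Other normalisation, filters, fits and left-out libraries were tried.

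The choice of this experiment and of the 46 gene lists was made with earlier results of these data known, while the labels alone set which samples belong to it. Named genes are MYB, HBS1L and AHI1, the 15 risers and 15 fallers with the largest change at 5 CPM or more, the 8 risers and 8 fallers of smallest p at 50 CPM or more, and up to 4 members of smallest p of each list described. Other list members, neighbours of MYB and joined rows were named after their values were seen. The replicate numbers of the titles are not said to pair the libraries, so the main fit had no block. Correlations of same-numbered deviations were -0.185, 0.008 and -0.122, and those of differently numbered ones ran from -0.069 to 0.18. With 3 libraries a group, this check cannot settle whether the libraries were paired. Gene positions are from GENCODE 29 and bins were placed only where a gene has as many parts there as bins. Equal numbers do not show that the parts are the same. Promoter windows are from RefSeq. A few genes counted in the lists are not reported here by name.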

Additional observations from a re-analysis of the deposited data

Results flagged for a closer look

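The effects of 34kp and 34kn differed, by the test of the difference over 12 libraries (edgeR's quasi-likelihood test, Benjamini-Hochberg adjusted), in 1102 genes. The following differences in log2 fold change, 34kp minus 34kn, belong to named genes past that test.

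Among antiviral genes the difference was 3.07 for IFI27, 2.07 for OAS3, 1.79 for ISG15, 1.26 for HELZ2, 1.23 for IRF7, 1.03 for PARP9 and 0.71 for IFITM3. Among signalling, structural and splicing genes it was 1.56 for EGR1, 1.29 for F2RL3, 1.21 for TMEM158, 1.05 for NEFH, 0.97 for CCND1, 0.8 for ID1, 0.79 for PTPN7, 0.78 for KRT10, 0.65 for PLXNA1, 0.61 for STAT5A, 0.52 for SRSF7 and 0.44 for SRSF3.

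Among stress genes it was -2.23 for CHAC1, -1.82 for DDIT4, -1.57 for ATF3 and -1.17 for HERPUD1. Among hypoxia genes it was -1.2 for P4HA1, -1.2 for ANKRD37, -0.98 for BHLHE40 and -0.69 for VEGFA. Among sterol genes and their neighbour it was -1.57 for INSIG1-DT, -0.92 for HMGCS1 and -0.86 for INSIG1. Among other fallers it was -1.55 for CYP3A5, -1.55 for ARRDC3, -1.46 for CD24, -1.45 for PRSS8, -1.34 for LRP1, -1.19 for OLMALINC, -1.06 for RDM1 and -0.79 for FAXDC2.

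Outside the gene counts, reads that the counting set aside as ambiguous were 0.0158% to 0.0171% of all counts in the control libraries. They were 0.0215% to 0.02248% in the overexpression libraries, with no overlap. What the counting took as ambiguous is not given in the sources used here.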

How the results depend on the processing

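The list of called genes was sensitive to tool, filter and single libraries. None of the 78 named called genes changed sign under any gene-level alternative. Their groups did not overlap, so leaving out a library could hardly turn a sign, and this is no test of direction. All 78 stayed called with DESeq2, with RLE size factors, without a filter and without joined names. The cause of the moved counts was not tested. Against 392 genes (105 higher, 287 lower), DESeq2 called 976 (404, 572), no filter 997 (340, 657) and the 12-library fit 817 (342, 475). Over the left-out libraries the count ran from 46 to 1175 (12 to 575 higher, 34 to 600 lower). List members called, 81 in all, were 142 with DESeq2, 131 without a filter, 137 in the 12-library fit and 23 to 153 with 1 library left out. Left-out ranges were 8 to 14 for interferon, 3 to 14 for ATF4, 3 to 12 for hypoxia, 3 to 10 for cholesterol and 0 to 8 for red cell membrane genes. The last were 8 with DESeq2, without a filter and in the 12-library fit. The test of the difference gave 2014 genes with DESeq2, 2085 without a filter and 380 to 2747 with 1 library left out. Exon usage gave 6 genes and 11 bins in the DEXSeq-type model, and 3 to 34 genes and 4 to 60 bins with 1 library left out. MYB stayed between 0.01 and 0.14 on the log2 scale with 1 library left out and had no called bin in any alternative. With 1 library left out HBS1L ran from -0.0534 to 0.044, turning to -0.0015 without control library 1 and -0.0534 without overexpression library 3. AHI1 turned to -0.0180 without control library 2, -0.0290 without control library 3 and -0.1072 without overexpression library 3.

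With the replicate number as a block, a pairing that the check could not settle, 71 genes passed (14 higher, 57 lower). Among them were 37 of the 78 named genes. List members called were 28 (9 interferon, 4 ATF4, 5 hypoxia, 3 cholesterol and 0 red cell membrane). The test of the difference gave 105 genes, and exon usage 4 genes and 8 bins. MYB was at 0.07 with the block.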
